A study of Mus musculus with 2 samples.

Results

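The genes of the prostaglandin and leukotriene pathway were examined in Tregs of lung and spleen after BLM. The 10 symbols were chosen by their place in the pathway, with earlier results of these data known, and 10 of 10 were found among the 24346 symbols listed for each library. They are the prostanoid receptors Ptger2, Ptger4, Ptgir and Ptgdr2, the cyclooxygenases Ptgs1 and Ptgs2, the prostaglandin D2 synthase Hpgds, the prostaglandin-degrading enzyme Hpgd, and the leukotriene genes Alox5 and Alox5ap. The samples were GFP+CD4+ T cells of FDG mice (genotype Foxp3-DTR-GFP), in which GFP is made from the endogenous Foxp3 locus and marks Tregs. Mice of 10 to 16 weeks received 50 μg of BLM into the trachea, an agent that injures the lung and leads to fibrosis, and cells were sorted on day 15. For each tissue, sorted cells from 3 mice went into a single pooled library, so both groups share genotype, treatment and time and differ in tissue. No untreated mice are among these libraries. Lung tissue was minced and digested with Liberase and DNase before the sort, and a lineage exclusion gate is not described for it.

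Prostanoids are short-lived lipids that cyclooxygenases make from arachidonic acid and that act through G protein-coupled receptors on nearby cells. PGE2 raises cAMP in T cells through EP2 (Ptger2) and EP4 (Ptger4), and prostacyclin does so through IP (Ptgir), whereas 15-hydroxyprostaglandin dehydrogenase (Hpgd) ends PGE2 signals and is a known gene of Tregs. Leukotrienes come from the same fatty acid through arachidonate 5-lipoxygenase (Alox5) and its activating protein FLAP (Alox5ap), a route best known from macrophages, neutrophils and mast cells.

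Expression was given as FPKM, the fragments of a gene per kilobase of exon after scaling of the library. It allows levels of different genes within a library to be compared. The scaling between the libraries is not given in the sources used here. With 1 library per tissue there is no replicate check and no p-value, and p-values are therefore absent throughout. Low FPKM values showed what 1 read was worth, and the reads estimated from this summed to 9865055 in spleen and 12885922 in lung. Intervals below are exact 95% intervals on estimated reads, which cover counting error only and neither mice nor PCR copies. Fold values are ratios of FPKM after values under 0.1 were set to 0.1. In the same libraries Foxp3 stood at 18.7 FPKM in spleen and at 41.8 in lung, Cd4 at 195 and 179, and Cd3e at 513 and 369, so the defining genes of CD4 Tregs were present in both. Genes of other cells were present as well, among them the macrophage gene Lyz2 at 24947 FPKM in lung against 376 in spleen. In bulk libraries, fewer cells of a type and less RNA per cell cannot be told apart.

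The members differed in opposite directions between the tissues. The genes Alox5ap, Alox5 and Ptgs2, had 15.2-fold, 7.23-fold and 4.96-fold the spleen value in lung, and Hpgd and Ptgs1 were 3.61-fold and 2.77-fold lower. The PGE2 receptors Ptger4 and Ptger2, together with Ptgir and Hpgds, stayed within 2-fold, and Ptgdr2 was listed at 0 in both libraries. Thus 3 of the 10 members were more than 2-fold higher in lung, where 11.0% of all listed genes were, and 2 were more than 2-fold lower, where 11.7% of all listed genes were. Of the 12094 genes that reached 1 FPKM in at least 1 tissue, which hold 9 of the members, 17.8% and 15.5% were past 2-fold in these directions. Past 4-fold, 3 members were higher and 0 lower in lung, where 6.02% and 5.39% of all listed genes were, and 1212 and 847 of the 12094 that reached 1 FPKM. None of the members passed 20-fold, which 1.62% of all listed genes did in the direction of lung and 1.17% in that of spleen, or 3.27% and 2.35% of those that reached 1 FPKM. The median log2 ratio of the 10 members was 0.23, and it was 0 over all listed genes, of which 8435 were at 0 in both libraries.

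**Figure D1:**
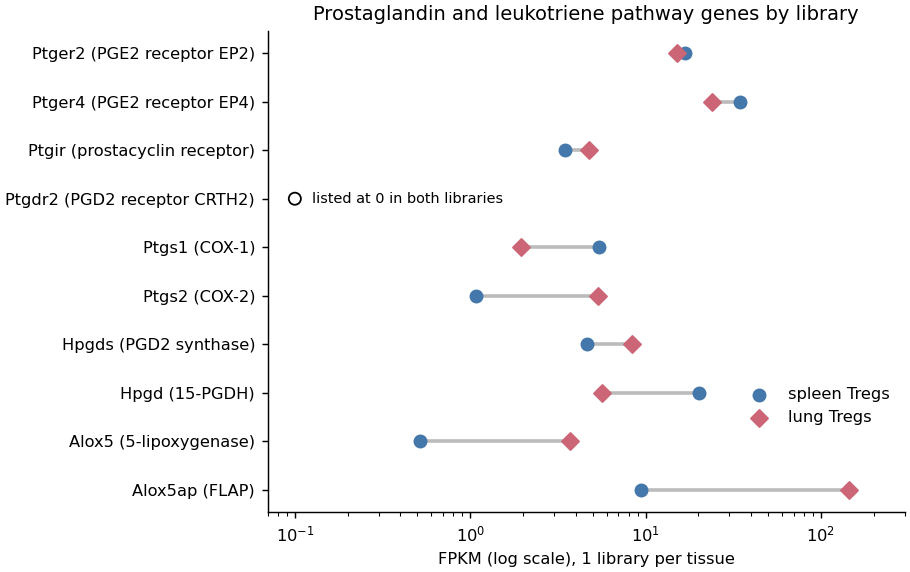
FPKM of the 10 members on a log axis, with 1 circle for the spleen library and 1 diamond for the lung library. The lung symbol lies far to the right for Alox5ap (143.7 against 9.46), Alox5 (3.73 against 0.516) and Ptgs2 (5.35 against 1.08), to the left for Hpgd (5.62 against 20.3) and Ptgs1 (1.95 against 5.41), and Ptgdr2 is an open circle because both values are 0.

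Upstream sequence is shown for the 4 members with a promoter in the RefSeq table (GRCm38.p6) that were more than 2-fold apart between the tissues, so that the constitutive and the inducible cyclooxygenase can be seen side by side. Alox5ap has no entry. Each line runs 5′ to 3′ on the strand of the gene, from 220 bases before the annotated start to 30 bases from it, and capitals mark the motifs named below.
Ptgs1 (chr2:36230206-36230455, plus strand): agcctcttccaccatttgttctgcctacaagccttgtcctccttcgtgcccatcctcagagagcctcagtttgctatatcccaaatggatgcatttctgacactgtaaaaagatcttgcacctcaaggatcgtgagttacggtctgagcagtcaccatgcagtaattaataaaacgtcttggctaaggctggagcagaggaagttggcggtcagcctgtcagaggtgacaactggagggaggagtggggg
Ptgs2 (chr1:150099811-150100060, plus strand): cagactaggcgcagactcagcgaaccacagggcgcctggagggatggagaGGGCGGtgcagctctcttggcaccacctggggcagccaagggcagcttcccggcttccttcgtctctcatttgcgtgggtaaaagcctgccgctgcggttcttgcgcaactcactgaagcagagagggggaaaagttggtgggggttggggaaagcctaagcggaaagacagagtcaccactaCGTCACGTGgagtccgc
Hpgd (chr8:56294332-56294581, plus strand): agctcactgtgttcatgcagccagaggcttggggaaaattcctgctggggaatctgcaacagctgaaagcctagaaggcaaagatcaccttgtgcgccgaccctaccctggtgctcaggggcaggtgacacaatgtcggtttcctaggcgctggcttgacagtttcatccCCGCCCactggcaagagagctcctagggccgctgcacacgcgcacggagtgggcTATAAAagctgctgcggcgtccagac
Alox5 (chr6:116461149-116461398, minus strand): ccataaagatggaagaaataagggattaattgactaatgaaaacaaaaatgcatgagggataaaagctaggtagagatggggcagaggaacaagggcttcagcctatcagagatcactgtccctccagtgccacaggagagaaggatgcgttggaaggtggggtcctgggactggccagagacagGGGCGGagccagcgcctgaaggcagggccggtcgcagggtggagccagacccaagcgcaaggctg
The letters of 4 motifs were searched on both strands of each window. The core of the cAMP response element was searched as CGTCA, the element that CREB and related factors can bind. For the E-box, a site of basic helix-loop-helix factors, the letters searched were CACGTG. The TATA box, which helps to place the start of transcription, was searched as TATAAA. For the GC box, a site of Sp1 and related factors, the letters were GGGCGG. The Ptgs2 window held the cAMP response element core at bases 14 to 18 from the annotated start, overlapping the E-box at bases 17 to 22, and a GC box that begins 170 bases before it. Over all 32851 windows of this length in the table, 18.8% held the cAMP response element core, 6.37% the E-box, 11.7% the TATA box and 33.8% the GC box. The annotated start of Hpgd differs between RefSeq (56294552) and GENCODE (56294585). The Hpgd window held 1 GC box and a TATA box, which lies at bases 5 to 10 from the RefSeq start and 29 to 24 bases before the GENCODE start. There was 1 GC box in the Alox5 window, and none of the 4 motifs in the Ptgs1 window. These matches describe letters and not binding.

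Among the 4 member receptors, Ptger4 had the highest FPKM in both libraries. Ptger4 encodes EP4, is transcribed from the minus strand of chromosome 15 between 5206661 and 5244187 (GRCm38, the build mm10), and was at 34.6 FPKM in spleen and at 23.9 in lung. The lung library was therefore 1.45-fold lower (interval 1.32 to 1.59), from about 1105 and 866 reads. Ptger2, the gene of EP2 on chromosome 14 from 44988195 to 45003820, was at 16.8 FPKM in spleen and at 15.2 in lung. Its ratio of lung to spleen of 0.903 as deposited had an interval from 0.807 to 1.01, which includes equal levels. On the TPM scale Ptger2 was 1.49-fold lower in lung, outside that interval. Ptger4 exceeded Ptger2 by 2.06 times in spleen and 1.57 times in lung, and their intervals did not overlap in either library.

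The prostacyclin receptor gene Ptgir, on chromosome 7 from 16906490 to 16910905, was at 3.46 FPKM in spleen and at 4.73 in lung, 1.37-fold higher in lung (interval 1.07 to 1.75). Ptger4 stood 10.01 times above Ptgir in spleen and 5.05 times in lung. The 3 genes Ptger2, Ptger4 and Ptgir were thus above 3 FPKM in both tissues. The gene of the other PGD2 receptor, Ptgdr (DP1), which also raises cAMP, was at 0.486 and 0.371 FPKM, and is named although it did not reach 1 FPKM. Ptgdr2 encodes CRTH2, the PGD2 receptor of Th2 cells, eosinophils and type 2 innate lymphoid cells, and lies on chromosome 19 from 10937160 to 10942511. It was listed at 0 in both libraries, where a count of 0 allows up to 0.119 FPKM in spleen and at 0.105 in lung, although 39.0% of its exon bases overlap Ccdc86 on the opposite strand. Of 6 genes of Th2 and type 2 innate lymphoid cells, 4 were more than 2-fold higher in lung, among them Il1rl1 at 2.46 and 25.8 FPKM and Il5 at 0 and 4.87. Il1rl1 is not particular to those cells. It encodes ST2, which the paper reports at a higher level in lung than in splenic Tregs, there in naive mice. Gata3 was at 69.1 and 77.3 FPKM and Il13 at 0 in both libraries.

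None of the 5 remaining prostanoid receptors had a higher value in lung. Tbxa2r, the thromboxane receptor gene, was at 33.1 FPKM in spleen and at 23.3 in lung, close to the levels of Ptger4. Ptger3, which encodes the PGE2 receptor EP3 that lowers cAMP, was at 1.39 FPKM in spleen and at 0 in lung. With 3 reads in place of 0 it was 13.1-fold lower in lung. Of the 5 genes in this list, 0 were more than 2-fold higher in lung and 1 was more than 2-fold lower, or 2 when both libraries were rescaled to TPM.

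Of the cyclooxygenases, which catalyse the first step from arachidonic acid to prostanoids, the constitutive and the inducible gene exchanged places. Ptgs1 (COX-1) on chromosome 2 from 36230426 to 36252272 was at 5.41 FPKM in spleen and at 1.95 in lung, from about 149 and 61.0 reads. It was 2.77-fold lower in lung, with an interval from 2.05 to 3.80. Ptgs2 (COX-2) on chromosome 1 from 150100031 to 150108227 was at 1.08 FPKM in spleen and at 5.35 in lung, from about 47.4 and 267 reads, and was 4.96-fold higher in lung (interval 3.66 to 6.98). With a pseudocount of 1 FPKM its log2 ratio went from 2.31 to 1.61. Ptgs1 was 5.02 times as high as Ptgs2 in spleen, whereas Ptgs2 was 2.74 times as high as Ptgs1 in lung.

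Most platelet genes on the list were lower in lung, as was Ptgs1, an enzyme that platelets are rich in. Of 6 platelet and megakaryocyte markers, 5 were at 0 in lung and above 0 in spleen, namely Ppbp (7.85 FPKM in spleen), Gp9 (3.36), Itga2b (2.21), Gp1ba (0.842) and Gp6 (0.307). The sixth marker, Pf4, was at 10.2 FPKM in spleen and at 65.5 in lung, and the summed level of the list was 24.7 FPKM in spleen and 65.5 in lung. Alox12, the 12-lipoxygenase of platelets, was at 1.63 FPKM in spleen and at 0 in lung, 17.9-fold lower with 3 reads in place of 0. The part of platelet RNA in the Ptgs1 value was not tested.

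Terminal synthases act on the product of the cyclooxygenases and set which prostanoid is formed. Hpgds, the haematopoietic PGD2 synthase on the minus strand of chromosome 6 from 65117293 to 65144908, was at 4.62 FPKM in spleen and at 8.36 in lung, 1.81-fold higher in lung (interval 1.49 to 2.2). On the TPM scale Hpgds was 1.34-fold higher, under that interval. Mast cells and basophils are a known source of this enzyme. Of 9 of their markers, 3 had a higher value in lung as deposited (Hdc, Fcer1a and Kit) and 4 had a lower one. On the TPM scale these counts were 2 and 5. Mcpt4 and Mcpt8 were at 0 in both libraries. Cpa3 was at 0.620 and 0.0682 FPKM, and its lung value rested on about 0.997 reads. The summed level of those 9 markers was 5.77 FPKM in spleen and 14.8 in lung, of which Hdc held 2.201 and 11.8.

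Of the other prostanoid synthases, 2 of 6 were more than 2-fold higher in lung and 1 was lower. Tbxas1, the thromboxane synthase gene, was at 5.18 FPKM in spleen and at 39.4 in lung, 7.61-fold higher (interval 6.14 to 9.47). Ptges, the inducible PGE2 synthase that is coupled to COX-2, was at 0 in spleen and 1.53 FPKM in lung. With 3 reads in place of 0 it was 18.2-fold higher in lung. Ptges2 was at 14.5 and 27.2 FPKM and Ptges3, a PGE2 synthase that is also a cochaperone, at 113 and 107.

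Hpgd oxidizes PGE2 to an inactive metabolite and differed in the direction of spleen. The gene lies on chromosome 8 from 56294585 to 56321043 and was at 20.3 FPKM in spleen and at 5.62 in lung, from about 310 and 97.6 reads. Its 3.61-fold lower value in lung (interval 2.85 to 4.55) was the greatest decrease among the 10 members. That interval overlapped the one of Ptgs1 (2.05 to 3.80). By level, Hpgd was the second of the members in spleen, with an interval that overlapped that of Ptger2 just under it, and the fifth in lung, level with Ptgs2 within counting error. Hpgd exceeded Hpgds by 4.39 times in spleen, and Hpgds exceeded Hpgd by 1.49 times in lung.

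The Treg genes did not differ in that direction as a group. In lung, Foxp3 was 2.23-fold higher, Ctla4 2.72-fold and Tnfrsf18 1.95-fold, Ikzf2 had a ratio of 0.992, and Il2ra was at 89.4 FPKM in spleen and at 59.1 in lung. On the TPM scale Foxp3 was 1.65-fold higher, Ctla4 2.02-fold higher and Il2ra 2.04-fold lower. Of the 5 Treg genes, only Ctla4 was then past 2-fold higher and only Il2ra past 2-fold lower. The genes that carry PGE2 across membranes or reduce its products showed no common direction. Abcc4, an exporter of prostaglandins and of cAMP, was at 10.9 FPKM in spleen and at 4.49 in lung, 0.413 as a ratio (interval 0.359 to 0.478). Ptgr1, which reduces the oxidized prostaglandins and also inactivates leukotriene B4, was at 0.509 FPKM in spleen and at 6.90 in lung, 13.6-fold higher (interval 7.42 to 27.8). Ptgr2 was at 13.02 and 18.1 FPKM, Cbr1 at 54.6 and 57.7, and Akr1b3 at 13.5 in both libraries. The exon bases of Ptgr2 overlap Gm47484 on the opposite strand over 59.8%, so its value is uncertain.

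**Figure D2:**
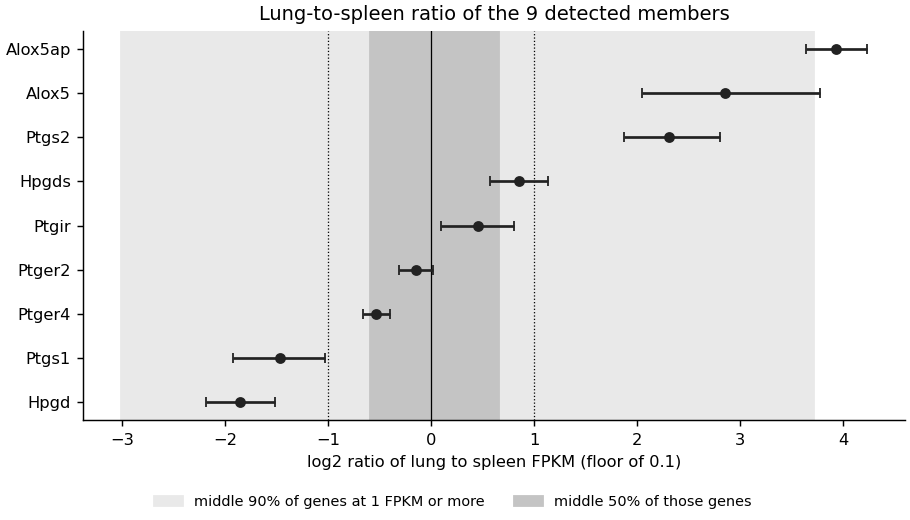
Log2 ratio of lung to spleen FPKM for the 9 members above 0, with bars for the exact 95% interval from estimated reads, over shaded bands for the middle 50% and the middle 90% of the 12094 genes that reached 1 FPKM. Ptger2, Ptger4 and Ptgir lie within the narrow band (-0.60 to 0.66), and Alox5ap, at 3.93, lies to the right of the wide one (-3.01 to 3.72).

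Alox5ap had the greatest difference among the members and the highest level in lung. FLAP presents arachidonic acid to 5-lipoxygenase, and its gene lies on chromosome 5 from 149264767 to 149288153. It was at 9.46 FPKM in spleen and at 143.7 in lung, from about 102 and 1764 reads, 15.2-fold higher in lung with an interval from 12.5 to 18.8. Among all listed genes its rank by FPKM went from 6704 in spleen to 850 in lung. Alox5, on the minus strand of chromosome 6 from 116410077 to 116461178, was at 0.516 FPKM in spleen, about 14.0 reads, and at 3.73 in lung, about 115 reads. This is 7.23-fold higher in lung, with a wide interval from 4.14 to 13.6 that overlaps the one of Alox5ap. Its log2 ratio of 2.85 depended on how low values were treated, and was 1.90 with a floor of 1 FPKM and 1.64 with a pseudocount of 1 FPKM. Of the exon bases of Alox5ap, 15.1% overlap an antisense transcript, Gm19719, whose reads cannot be told apart from its own. In both tissues Alox5ap stood far above Alox5, by 18.3 times in spleen and 38.5 times in lung. In spleen Alox5 was the lowest member above 0, with an interval that overlapped that of Ptgs2. In lung it passed Ptgs1, and its interval overlapped that of Ptgir.

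Of the other genes of leukotriene synthesis, 2 of 6 were more than 2-fold higher in lung and 1 was lower. Ltc4s, which joins glutathione to leukotriene A4, was at 0 in spleen and 29.3 FPKM in lung, about 95.2 reads. With 3 reads in place of 0 it was 27.9-fold higher in lung, although 29.4% of its exon bases overlap the antisense transcript Gm26542. Dpep2, which converts leukotriene D4 to E4, was at 0.725 and 28.9 FPKM, 39.9-fold higher (interval 22.6 to 82.2). Depending on the GENCODE entry of Dpep2, 25.4% or 27.8% of its exon bases overlap Gm45752 on the opposite strand. Lta4h, the enzyme that forms leukotriene B4, was by contrast abundant and nearly level, at 138 FPKM in spleen and at 146 in lung. Its ratio of 1.05 turned to 0.782 after rescaling to TPM. Ggt1, which starts the conversion of leukotriene C4, was at 1.66 FPKM in spleen and at 0.0443 in lung, where it rested on about 1.01 reads (ratio of lung to spleen between 0.000656 and 0.159).

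Receptors of leukotrienes and lipoxins were among the pathway genes with the greatest ratios. Ltb4r1, the high-affinity receptor for leukotriene B4, was at 1.63 FPKM in spleen and at 29.996 in lung, 18.4-fold higher (interval 11.8 to 30.5). Cysltr1, the leukotriene D4 receptor, was at 0.769 and 8.49 FPKM, 11.1-fold higher (interval 8.03 to 15.8), and Fpr2, a receptor for lipoxin A4 and formyl peptides, was at 0.709 and 9.996 FPKM. Cysltr2 was at 3.26 and 2.87 FPKM, and 2 genes of the list were at 0 in both libraries. Of these 6 genes 3 were more than 2-fold higher in lung and 0 were lower, with a median log2 ratio of 1.73. Among the other lipoxygenases, Alox15, a gene of alternatively activated and resident macrophages and eosinophils, was at 0.350 FPKM in spleen and at 8.82 in lung, 25.2-fold higher (interval 12.5 to 58.8), and Alox8 was at 2.93 and 5.38.

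Alox5ap and Alox5 were set beside genes of other cell types. Of 8 macrophage genes, 8 had the higher value in lung as deposited and 6 on the TPM scale, with 5 past 2-fold on both, and their summed level was 506 FPKM in spleen and 26578 in lung. Within the list, Chil3 and Lyz2 were 66.8-fold and 66.3-fold higher, Cd68, Marco and Fcgr1 were 8.57-fold, 4.87-fold and 4.50-fold higher, and Adgre1, Mrc1 and Csf1r were within 2-fold. None of the 8 was at 0 in spleen. The summed level of 5 neutrophil genes was 425 FPKM in spleen and 1200 in lung, with Csf3r 6.49-fold higher and S100a8 2.92-fold higher. Of 6 dendritic cell genes 3 were more than 2-fold higher, among them Itgax at 1.36 and 24.1 FPKM, and Flt3 was lower, at 1.43 and 0.172. Siglecf, a marker of alveolar macrophages and eosinophils, was at 0.0438 and 8.06 FPKM, while the eosinophil gene Epx was at 0 in both libraries and Prg2 at 0 in lung. The B cell genes Cd79a, Ms4a1 and Pax5 were lower in lung. All 5 fibroblast genes were more than 2-fold higher in lung, with a summed level of 0.29 FPKM in spleen and 47.0 in lung and Dcn at 0.122 and 22.2. Of 5 lung epithelial genes, Scgb1a1 (1.48 and 3021 FPKM), Sftpc and Sftpb were higher in lung, whereas Epcam (8.75 and 1.79) and Ager (2.27 and 1.74) were lower. Of 5 endothelial genes 3 were more than 2-fold higher in lung, and the summed level was 55.4 and 40.6 FPKM. The part of RNA from such cells was not tested in the values of Alox5ap, Alox5, Ptgs2, Hpgds and Tbxas1. Nor was it tested for the other members and pathway genes, among them Ltc4s, Dpep2, Ltb4r1, Cysltr1, Fpr2 and Ptgr1.

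**Figure D3:**
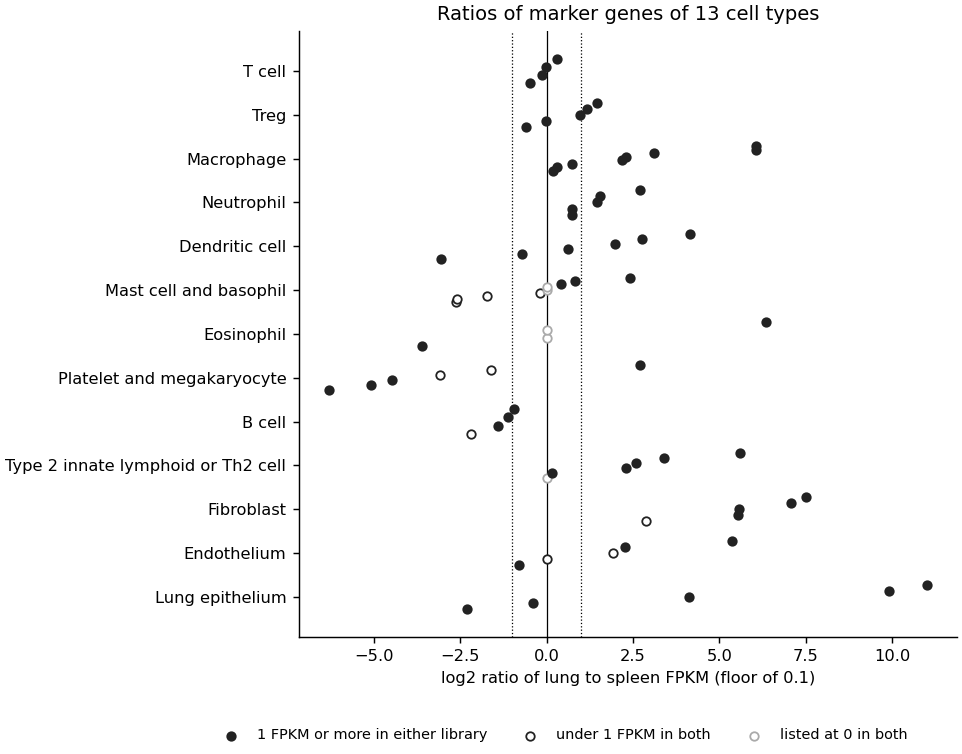
Log2 ratio of lung to spleen FPKM for each marker gene of 13 cell types, 1 point per gene, with dotted lines at 2-fold in either direction. The T cell points lie between -0.48 and 0.31, the 8 macrophage points all lie at or above 0.19 on the deposited scale, and 5 of the 6 platelet points lie at -1.62 or under.

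The genes that carry the cAMP signal inside the cell were compared as the known outlet of EP2, EP4 and IP. All 23 genes of this list were at 1 FPKM or more in a library, and 6 were more than 2-fold higher and 3 more than 2-fold lower in lung. After rescaling to TPM these counts turned to 3 higher and 6 lower, so the list had no direction that held across scalings. Crem, whose short products are induced by cAMP and repress its targets, stood out at 14.1 FPKM in spleen and at 197 in lung, 14.0-fold higher (interval 12.1 to 16.4). It was still 10.4-fold higher on the TPM scale. Its 18 RefSeq transcripts span 529 to 2931 nt, and the FPKM of the gene does not tell the short products from the others. The interval assumes a length of 1487.5 nt. The cause of the Crem difference, and the part of RNA from other cells in it, were not tested.

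The stimulatory G protein gene Gnas was at 286 and 365 FPKM and the adenylate cyclase gene Adcy7 at 46.0 and 54.6. Adcy3, at 7.63 FPKM in spleen and at 3.18 in lung, was 0.417 as a ratio, but 29.2% of its exon bases overlap Cenpo on the opposite strand. Adcy6 was at 1.31 and 0.190 FPKM and Adcy9 at 0.299 and 1.01. Catalytic subunits of protein kinase A were close between the tissues, with Prkaca at 25.4 and 19.8 FPKM and Prkacb at 59.2 and 49.6. Phosphodiesterases, which break down cAMP, differed in both directions. Pde3b was at 3.46 and 8.10 FPKM, Pde4d at 2.86 and 7.14 and Pde4a at 0.811 and 1.83, all more than 2-fold higher in lung as deposited but not on the TPM scale, whereas Pde4b was at 32.4 and 36.5, Pde7a at 8.67 and 4.52, and Pde2a, which shares 87.9% of its exon bases with Gm45837, at 35.6 and 17.9. On the TPM scale Pde2a and Pde7a were 2.69-fold and 2.59-fold lower, and no phosphodiesterase of the list was past 2-fold higher. Crtc2, a coactivator of CREB, was at 32.2 FPKM in spleen and at 12.1 in lung, and Creb1 was at 13.2 and 10.3.

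**Figure D4:**
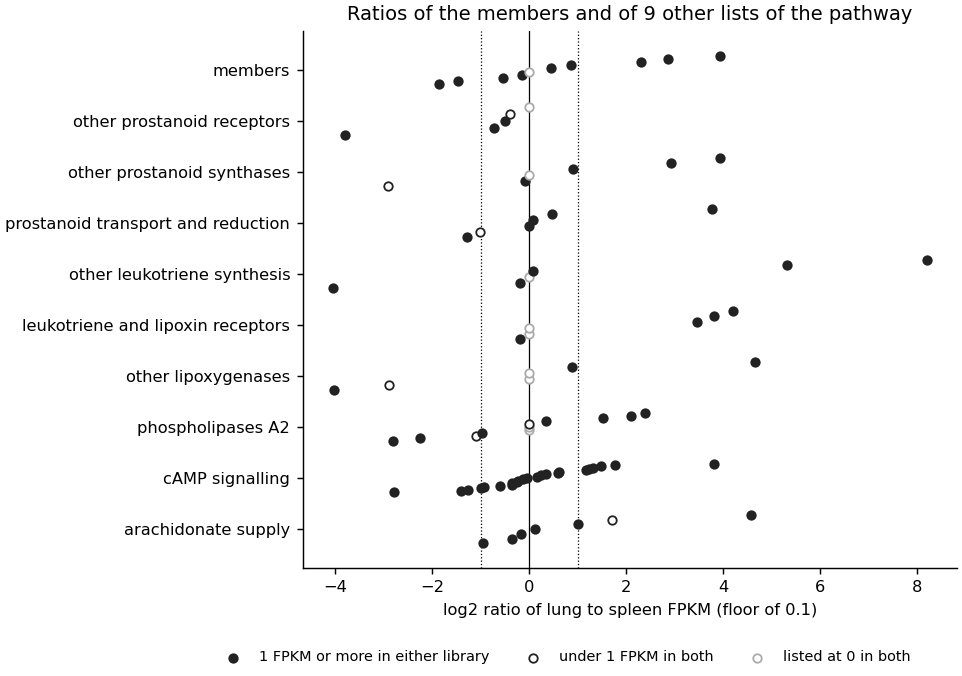
Log2 ratio of lung to spleen FPKM for the 10 members and for 76 other pathway genes in 9 lists, 1 point per gene, with dotted lines at 2-fold and open points for genes under 1 FPKM in both libraries. The other prostanoid receptors lie at or left of 0, whereas 3 leukotriene and lipoxin receptors lie to the right of 3.

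Over these 76 other genes of the pathway, 20 were more than 2-fold higher in lung and 13 more than 2-fold lower, so 60.6% of the genes past 2-fold were higher. Among all listed genes, 2678 (11.0%) were more than 2-fold higher and 2850 (11.7%) lower. Of the 60 pathway genes that reached 1 FPKM, 19 were higher and 9 lower, where 17.8% and 15.5% of all such genes were. These shares are also the background of each list count. On the TPM scale the counts of the 76 genes were 17 and 19, and 47.2% of those past 2-fold were higher. The share over all listed genes was not computed on that scale. That rescaling shifted the log2 ratio of lung to spleen by a median of -0.43 in genes above the floor in both tissues. On it, Alox5ap, Alox5, Ptgs2, Hpgd and Ptgs1 stayed past 2-fold in their directions. On the TPM scale Ptgir, at a log2 ratio of 0.02, was level between the tissues, and Ptger4 stood at -0.97, just within 2-fold.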

How the data were processed

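Bulk RNA-seq of sorted GFP+CD4+ Tregs of FDG mice given BLM was analysed, with 1 pooled library per tissue (spleen, lung). RNA was amplified with SMART-Seq HT, which marks neither strand nor molecules. Reads (75-base, single-end) were aligned by the authors to mm10 using TopHat2 2.1.1, Bowtie2 2.2.8 and SAMtools 0.1.18, and the deposited FPKM were calculated with Cuffdiff 2.2.1. The annotation and the scaling between libraries are not given in the sources used here.

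Lung-to-spleen ratios were computed after FPKM under 0.1 were set to 0.1. Reads were estimated from GENCODE M21 transcript lengths (GRCm38), known for 97.2% of symbols, using Cuffdiff's default fragment length (mean 200, SD 80) and a shortest fragment of 71 nt. After this conversion, estimated reads lay within 0.1 of an integer in 72.6% of single-length genes with 1 to 10 reads in spleen and 74.7% in lung. At 1 kb, 1 read was worth 0.0965 FPKM in spleen and at 0.0850 in lung. Intervals are Clopper-Pearson on these reads, and a count of 0 was taken to allow 3 reads. Exon overlaps were read from the same annotation, and promoters from RefSeq, which held 9 of the 10 members. No test was run, since each tissue has 1 library. Some genes are not reported here.

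The members and lists were chosen with earlier results of these data known. Pathway genes outside the members could be named where they reached 1 FPKM in a library, with Ptgdr as the exception, and marker lists were described by their defining genes. With 2 libraries each gene has 1 ratio, so no genes of like pattern were sought. Scaling, floor, pseudocount, filter, fold and transcript length were varied. The steps were tested on simulated data with known folds. Scripts ran in Python 3.11.15 with scipy 1.17.1, numpy 2.4.6 and pandas 2.3.3, and figures were drawn in matplotlib 3.10.9.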

Additional observations from a re-analysis of the deposited data

How the results depend on the processing

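No paired analysis was possible because each tissue has 1 library and no test was run. The counts of 3 members more than 2-fold higher and 2 lower held under every scaling, floor, pseudocount, filter and read minimum tried, and no member that was past 2-fold changed direction. At a 4-fold threshold, 3 members were higher and 0 lower, and at 20-fold 0 were past it in either direction. The median log2 ratio of the members was 0.23, 0.010 on the TPM scale, and 0.45 with a filter of 1 FPKM or of 10 reads in the higher library, both of which leave out Ptgdr2. For the other pathway genes, 13 were past 4-fold and 4 past 20-fold in the direction of lung, 8 and 0 in that of spleen. Of all listed genes, 6.02% were past 4-fold and 1.62% past 20-fold in the direction of lung, and 5.39% and 1.17% in that of spleen. The 13 pathway genes past 2-fold in the direction of spleen became 5 with a floor of 1 FPKM and 8 with a pseudocount of 1 FPKM. Scaling to equal levels of T cell genes was chosen after seeing the data. Genes with under about 50 reads, such as Alox5 and Ptgs2 in spleen, are limited by depth.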

Other observations

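Some phospholipases A2 release the arachidonic acid that feeds this pathway. Of 11 genes listed with this family, not all of which encode such enzymes, 3 were more than 2-fold higher in lung and 3 more than 2-fold lower. Pla2g7, the secreted acetylhydrolase of platelet-activating factor made by macrophages, was at 13.4 FPKM in spleen and at 70.2 in lung, 5.24-fold higher (interval 4.60 to 6.0). Pla2g4a, the cytosolic enzyme most closely tied to eicosanoid synthesis, was at 1.35 and 5.81 FPKM, 4.31-fold higher (interval 2.99 to 6.28), and the lysosomal enzyme gene Pla2g15 was at 10.2 and 29.3. In the direction of spleen, Pla2g2d, a secreted enzyme of lymphoid dendritic cells and macrophages, was at 6.38 FPKM in spleen and at 0.909 in lung, and Pla2g6 was at 5.29 and 1.11. The intervals of the ratio of lung to spleen were 0.0852 to 0.227 for Pla2g2d and 0.142 to 0.298 for Pla2g6.

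Of 7 genes that make arachidonic acid, place it in membrane lipids or release it from endocannabinoids, 2 were more than 2-fold higher in lung and 0 lower, or 2 and 1 on the TPM scale. Acsl4, which activates the fatty acid, was at 12.0 FPKM in spleen and at 10.7 in lung, Mboat1 at 7.07 and 7.66, and Elovl5, an elongase of polyunsaturated fatty acids, at 102 and 80.2. Fads1, a desaturase of arachidonate synthesis, was at 6.14 and 3.19 FPKM, 1.93-fold lower in lung and 2.60-fold lower on the TPM scale. Lpcat3, which loads arachidonate into phospholipids, was at 17.7 and 35.4 FPKM, but 14.6% of its exon bases overlap Emg1 on the opposite strand. Mgll, the monoacylglycerol lipase gene, was at 0.232 FPKM in spleen, about 5.49 reads, and at 5.51 in lung, 23.8-fold higher (interval 10.9 to 81.5).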
